A study of Mus musculus with 32 samples.

Results

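Resident Kupffer cells are the macrophages that line the sinusoids of the liver, and 10 genes that they express are described here: Clec4f, Timd4, Folr2, Vsig4, Cd5l, Marco, Cd163, Adgre1, Csf1r and Hk3. The genes were taken from a list of symbols and matched to the Ensembl identifiers of the count table. All 10 were among its 52636 genes, and all 10 were among the 15599 genes that passed the filter on low counts and were tested.

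Liver RNA was sequenced from 32 mice, 1 library of polyadenylated RNA per mouse, in 8 groups of 4. The gene for thyroid hormone receptor beta, Thrb, was intact or knocked out, and mice of either genotype were given PBS or T3 (triiodothyronine, the active thyroid hormone) and oil or CCl4 (carbon tetrachloride, which hepatocytes turn into a toxic radical), in all 8 combinations. Every mouse, controls included, was on the PTU/LID diet, which lowers thyroid hormone, so T3 was compared with hormone deficiency and not with a normal thyroid state. CCl4 was dosed at 0.4 µl/g in 9 injections over 4 weeks, 2 a week, T3 was in the drinking water at 1 µg/ml in the last of those weeks, and livers were sampled 24 hours after the final CCl4 dose. No source used here gives the strain, the age or the knockout allele. Each library carries its own animal number in the labels, so replicates are different mice.

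Kupffer cells settle in the liver before birth and renew themselves there, with their survival resting on signals through the receptor Csf1r. They clear particles, dying cells, haemoglobin and complement-coated microbes from portal blood by means of a set of surface receptors. When the liver is injured, resident cells can be lost and monocytes from the blood can enter and take on macrophage programmes. Thyroid hormone acts through nuclear receptors that bind DNA motifs built from the half-site AGGTCA.

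Promoter sequence is shown for Timd4, Marco and Hk3, the genes whose T3 rise differed with genotype or with injury in the tests reported here and whose window lies outside annotated transcripts. Each window holds the 250 bases before the RefSeq transcript start on GRCm38.p6, written 5′ to 3′ on the strand of the gene. Capitals mark matches on either strand to 3 motifs: the nuclear receptor half-site AGGTCA, the PU.1 core GAGGAA and the MAF half-site TGCTGA. The windows are chr11:46810549-46810798 (plus strand), chr1:120505025-120505274 (minus strand) and chr13:55021386-55021635 (minus strand).
Timd4: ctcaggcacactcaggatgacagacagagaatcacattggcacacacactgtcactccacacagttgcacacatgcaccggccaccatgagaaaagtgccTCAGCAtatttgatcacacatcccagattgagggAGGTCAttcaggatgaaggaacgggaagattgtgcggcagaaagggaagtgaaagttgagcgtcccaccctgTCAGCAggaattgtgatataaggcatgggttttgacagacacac
Marco: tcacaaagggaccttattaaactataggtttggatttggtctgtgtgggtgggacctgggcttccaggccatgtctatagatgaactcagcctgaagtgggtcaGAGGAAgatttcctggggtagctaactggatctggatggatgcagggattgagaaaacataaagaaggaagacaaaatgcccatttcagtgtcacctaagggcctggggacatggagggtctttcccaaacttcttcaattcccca
Hk3: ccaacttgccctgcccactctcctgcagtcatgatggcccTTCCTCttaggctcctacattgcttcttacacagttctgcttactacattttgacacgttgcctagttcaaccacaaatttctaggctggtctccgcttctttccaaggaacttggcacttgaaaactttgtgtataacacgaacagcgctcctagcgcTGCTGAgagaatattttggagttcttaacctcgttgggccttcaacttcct
In the Timd4 window AGGTCA began 116 bases before the start, and TGCTGA matched on the other strand at 150 and 44 bases. The Marco window held 1 match to GAGGAA, at 146 bases. Hk3 had GAGGAA on the other strand at 210 bases and TGCTGA at 51 bases. RefSeq windows were matched for 8 of the 10 genes (9 windows, 2 of them of Folr2). AGGTCA was found in 2 of the 8 genes (Timd4 and Clec4f) and in 14.0% of all 32851 windows, GAGGAA in 4 of the 8 and in 23.3% of all windows, and TGCTGA in 5 of the 8 and in 16.1% of all windows. A match describes letters in a window, not binding.

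Library totals ran from 16985162 to 26118055 counts. Alb, the albumin gene of hepatocytes, had at least 895894 reads in every library, and no member was at 0 in any library (the lowest was Cd163 at 29 reads), so liver and Kupffer cell transcripts were present throughout. Thrb itself kept reads in the knockout, at 35.9 ± 4.94 CPM (counts per M, scaled by library size, mean ± SD, n = 4) against 59.02 ± 7.09 in wild type on PBS and oil. Thra, the gene of the other thyroid hormone receptor, was at 21.1 ± 5.03 CPM in the knockout and 24.02 ± 4.05 CPM in wild type on PBS and oil. The deleted part of Thrb is not given in the sources used here, so gene-level reads do not test the genotype labels. Dio1, a liver gene that thyroid hormone induces, was at most 1.00 CPM in wild-type PBS mice and at least 844 CPM in wild-type T3 mice, against 4.20 to 5.61 and 96.7 to 125 CPM in knockout PBS and T3 mice on oil. Over all tested genes, replicate 2 of wild-type PBS CCl4 lay farthest from its group mean, followed by replicate 3 of knockout PBS CCl4. Wild-type PBS CCl4 replicate 4 was the highest of its group for 9 of the 10 members, and knockout PBS CCl4 replicate 3 was the lowest of its group for 9.

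Before T3 or injury, the 10 genes differed widely in level. Per kilobase of exon, wild-type livers on PBS and oil held 19.3 CPM per kb of Cd5l, 17.7 of Clec4f and 14.5 of Vsig4, against 1.51 of Timd4, 0.935 of Cd163 and 0.612 of Hk3. Cd5l encodes a protein secreted by macrophages, Clec4f a C-type lectin, and Vsig4 the complement receptor CRIg. Without T3, oil-injected knockout and wild-type livers did not differ detectably. Of the 10 genes 0 passed the edgeR quasi-likelihood test for genotype, where 0.538% of all tested genes did. The 95% intervals of the genotype difference lay within -1.28 and 0.79 on the log2 scale.

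T3 raised all 10 genes in oil-injected livers of both genotypes. In wild type 10 of 10 were called higher at an adjusted p of 0.05 or less, where 19% of all tested genes were, and the median log2 fold change of the 10 was 2.68 against -0.02 for all tested genes. In the knockout 10 of 10 were called higher, where 10.6% of all tested genes were, and the median was 2.48 against 0.01. In both genotypes every T3 liver was above every PBS liver for each of the 10 genes, a separation upward that 20.5% and 12.8% of all tested genes showed. These are bulk livers, in which more Kupffer cells and more RNA per Kupffer cell cannot be told apart.

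**Figure D1:**
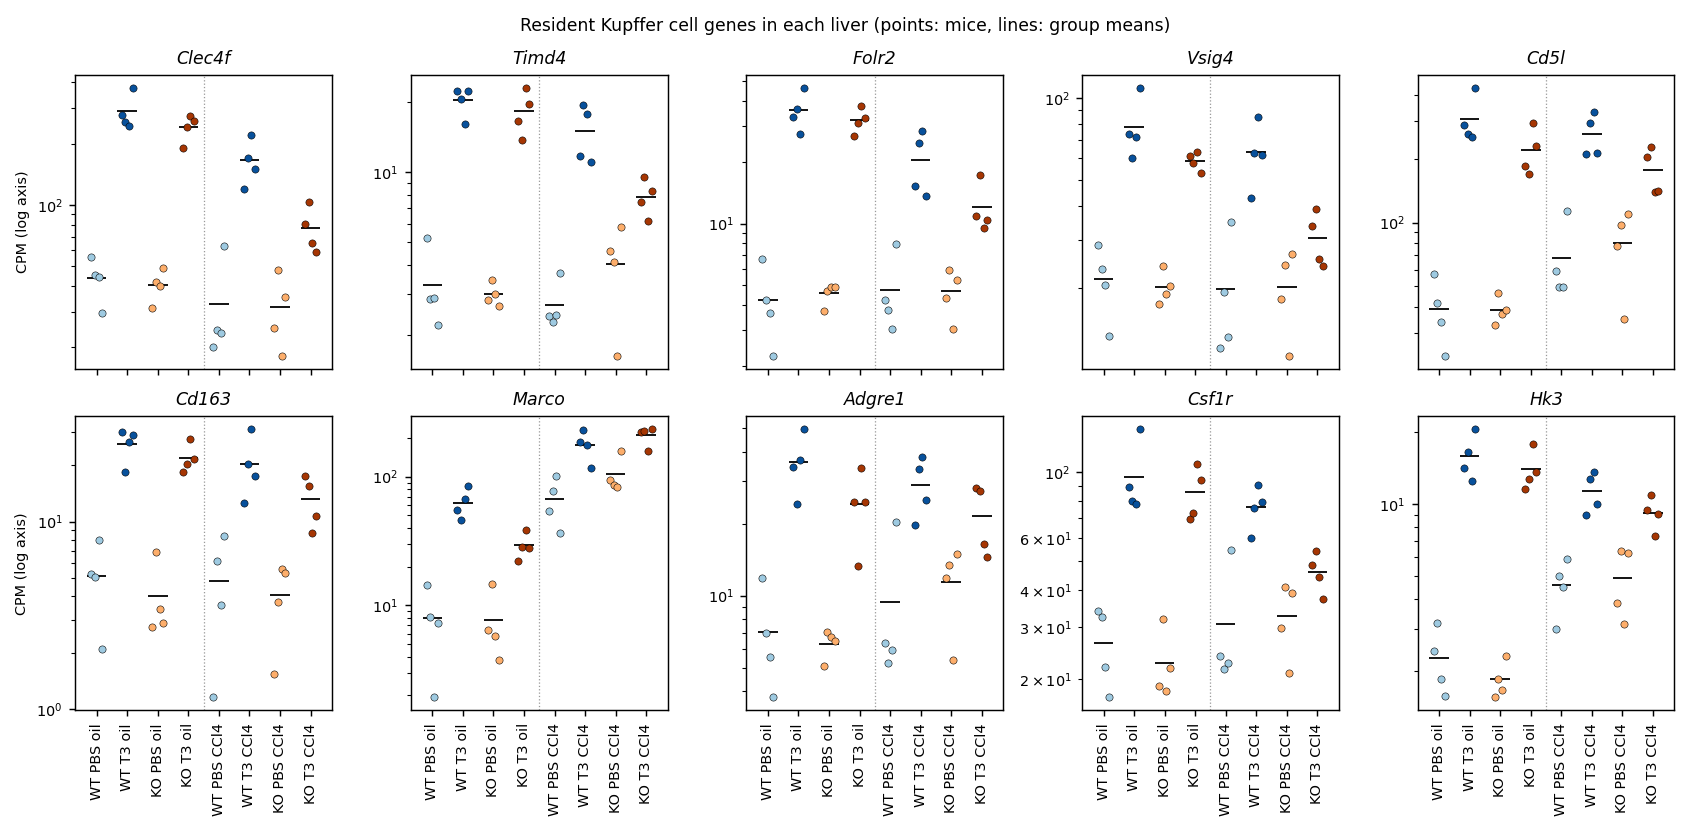
Level of each of the 10 genes in each liver in CPM on a log axis, with 1 point per mouse, a line at each group mean and a dotted line between oil and CCl4 groups. T3 livers sit above PBS livers in every oil pair, and Marco in CCl4 PBS livers sits above oil PBS livers of both genotypes with no overlap.

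Csf1r (colony stimulating factor 1 receptor, ENSMUSG00000024621, chromosome 18, 61100598 to 61132149, plus strand) binds the growth factors encoded by Csf1 and Il34. In wild-type oil livers its level was 33.97, 32.6, 22.01 and 17.4 CPM on PBS and 89.2, 79.8, 77.98 and 139 CPM on T3. The fold was 3.65 (log2 1.87 ± 0.28 SE, adjusted p = 5.66e-06), and in the knockout it was 3.77 (log2 1.91 ± 0.28, adjusted p = 1.61e-05). Csf1r overlaps Hmgxb3 on the other strand. The 2 genes share only the stretch from 61131277 to 61132149. The strand setting of the counting is not given in the sources used here, so reads within that stretch cannot be assigned to 1 of the pair. Hmgxb3 was at 17.5 ± 1.66 CPM on PBS and 21.3 ± 1.45 CPM on T3 in wild-type oil livers (log2 0.29 ± 0.18, adjusted p = 0.226).

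Among the uptake receptors, Timd4 (ENSMUSG00000055546, chromosome 11, 46810800 to 46844332, plus strand) binds phosphatidylserine on dying cells. Timd4 was at 5.23, 2.85, 2.86 and 2.20 CPM in wild-type PBS oil livers and at 22.5, 20.7, 16.2 and 22.4 CPM in wild-type T3 oil livers. Knockout oil livers held 2.81, 3.45, 2.99 and 2.66 CPM on PBS and 16.6, 13.8, 23.1 and 19.8 CPM on T3. The 2 genotypes overlapped on either treatment, and the T3 folds were 6.24 in wild type and 6.15 in the knockout (adjusted p = 3.22e-08 and 2.98e-07).

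Folr2 (ENSMUSG00000032725, chromosome 7, 101839988 to 101857194, minus strand) encodes folate receptor beta and had the highest T3 fold of the 10 in wild-type oil livers. Its values were 6.69, 4.22, 3.62 and 2.25 CPM on PBS and 33.3, 36.6, 27.4 and 46.3 CPM on T3 in wild type, a fold of 8.58 (log2 3.10 ± 0.31). In the knockout they were 3.71, 4.69, 4.88 and 4.91 and 26.8, 31.1, 37.8 and 32.9 CPM, a fold of 7.06 (log2 2.82 ± 0.31). An antisense gene, Gm10602, and a processed pseudogene, Gm45319, lie on the other strand of Folr2. Gm10602 was at 1.91 ± 0.516 CPM on PBS and 1.73 ± 0.0665 CPM on T3, with an adjusted p of 0.73, and Gm45319 had 0 reads in all libraries.

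Clec4f (ENSMUSG00000014542, chromosome 6, 83644542 to 83656187, minus strand) marks Kupffer cells in mice. It rose from 43.8 ± 10.7 to 288 ± 60.2 CPM in wild type and from 40.6 ± 7.36 to 241 ± 35.1 CPM in the knockout, 6.58-fold and 5.93-fold. Vsig4 (ENSMUSG00000044206, chromosome X, 96247203 to 96293438, minus strand) rose 3.64-fold and 2.91-fold, the lowest folds of the 10 in each genotype. Cd163 (ENSMUSG00000008845, chromosome 6, 124304656 to 124330527, plus strand), the receptor for haemoglobin bound to haptoglobin, went from 5.11 ± 2.41 to 26.04 ± 5.23 CPM in wild type and from 3.998 ± 1.96 to 21.9 ± 4.04 CPM in the knockout. Its folds were 5.07 and 5.52.

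Marco (ENSMUSG00000026390, chromosome 1, 120474538 to 120505024, minus strand), a class A scavenger receptor for bacteria and particles, was at 14.5, 8.17, 1.94 and 7.32 CPM on PBS and 54.6, 45.8, 66.6 and 83.9 CPM on T3 in wild-type oil livers. In the knockout it was at 6.47, 14.7, 5.76 and 3.78 and 22.04, 28.5, 38.8 and 28.04 CPM. No T3 liver of the knockout reached the lowest T3 liver of the wild type. T3 raised Marco 7.91-fold in wild type (log2 2.98 ± 0.42) and 3.84-fold in the knockout (log2 1.94 ± 0.41). The direct genotype comparison on T3 and oil gave log2 -1.10 ± 0.39 with an adjusted p of 0.0529. That difference passed the threshold with DESeq2 (log2 -1.11, adjusted p = 0.0299), with library totals alone (-1.22, 0.0294), with only the groups compared in the fit (-1.08, 0.00343) and without wild-type T3 oil replicate 2 (-1.23, 0.0443). This last was the only 1 of the 8 fits without 1 library that called it, with adjusted p of up to 0.142 over the 8. It was also not called without the filter on low counts or with replicate numbers added to the fit.

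Cd5l (ENSMUSG00000015854, chromosome 3, 87357881 to 87371073, plus strand), which encodes the apoptosis inhibitor of macrophages, rose 7.87-fold in wild type and 5.67-fold in the knockout, to 309 ± 83.5 and 219.9 ± 56.9 CPM. Adgre1 (ENSMUSG00000004730, chromosome 17, 57358691 to 57483527, plus strand), an adhesion receptor found on most mouse tissue macrophages, rose 5.17-fold and 3.84-fold. Hk3 (ENSMUSG00000025877, chromosome 13, 55005985 to 55021385, minus strand) encodes a hexokinase of myeloid cells, which phosphorylates glucose. Its levels were 2.42, 3.18, 1.85 and 1.57 CPM on PBS and 14.1, 16.4, 12.4 and 20.5 CPM on T3 in wild type, and 1.55, 1.85, 1.67 and 2.31 and 11.6, 12.7, 17.8 and 13.6 CPM in the knockout. Folds of 7.04 and 7.56 came with the smallest adjusted p-values of the 10 in each genotype (1.14e-09 and 2.12e-08). Hk3 overlaps Unc5a on the other strand, and Unc5a was at 2.27 ± 0.165 CPM on PBS and 1.90 ± 0.371 CPM on T3 in wild type (adjusted p = 0.432).

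The T3 rise on oil did not differ detectably between the genotypes. The interaction, coded as the T3 effect in the knockout minus that in the wild type, was called for 0 of 10 genes, where 12.2% of all tested genes were called. With DESeq2 it was also 0, and 0 had an unadjusted p under 0.05. The largest difference was that of Marco, at log2 -1.04 ± 0.56 (95% interval -2.20 to 0.11), followed by Cd5l at -0.47 ± 0.43 (-1.35 to 0.41). For Timd4 it was -0.02 ± 0.40 (-0.84 to 0.79) and for Hk3 0.10 ± 0.35 (-0.61 to 0.82). Over the 10 genes the intervals reached from -2.20 to 1.35.

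**Figure D2:**
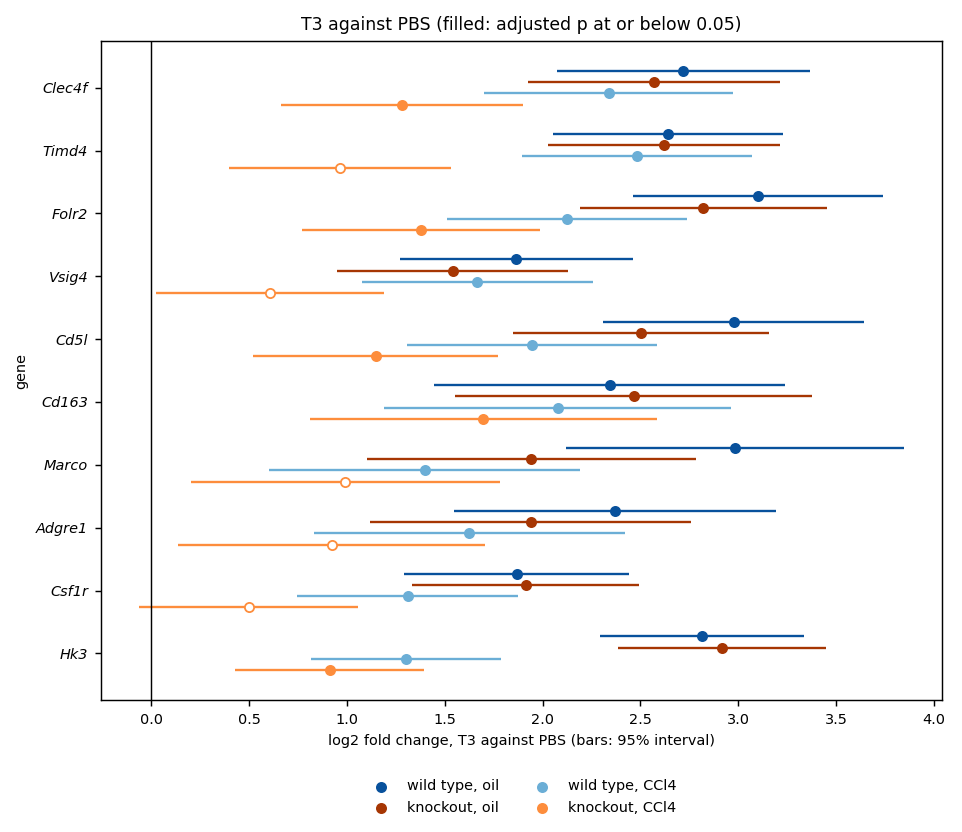
Log2 fold change of each gene for T3 against PBS in the 4 settings of genotype and injection, with 95% intervals as bars and filled points at an adjusted p of 0.05 or less. In both oil settings all 10 points are filled and lie between 1.54 and 3.10, and in knockout CCl4 livers all 10 lie between 0.50 and 1.70, with 5 filled.

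CCl4 without T3 raised 3 of the 10 genes in each genotype: Marco, Hk3 and Cd5l. The other 7 were not called in either. Those 3 of 10 stood against 24.6% of all tested genes called higher in wild type, so that share was close to the background, and 17.8% in the knockout. Of the 10, 0 were called lower, against 21.6% and 13.4%. Marco had 53.9, 77.1, 101 and 36.6 CPM in wild-type PBS CCl4 livers and 93.6, 86.4, 83.7 and 159 CPM in knockout PBS CCl4 livers, all above every PBS oil liver. Its folds were 8.45 (log2 3.08 ± 0.42, adjusted p = 3.52e-06) and 13.8 (log2 3.79 ± 0.44, adjusted p = 9.36e-07). Hk3 had 3.01, 4.99, 4.50 and 5.86 CPM in wild-type and 3.83, 6.36, 3.14 and 6.24 CPM in knockout PBS CCl4 livers, folds of 2.04 and 2.64 (adjusted p = 0.00157 and 2.69e-04). Hk3 overlapped between oil and CCl4 in wild type and not in the knockout. Cd5l rose 1.73-fold and 2.06-fold, with overlap in both. In wild type the Cd5l call was lost with only the 2 groups in the fit (log2 0.82, adjusted p = 0.0855). Leaving out PBS CCl4 replicate 4 also ended it (log2 0.43, adjusted p = 0.235), as did leaving out PBS oil replicate 2, 3 or 4 (0.60 to 0.82). That CCl4 library stood apart for Clec4f too, at 20.04, 24.4, 23.6 and 63.1 CPM over the 4 replicates. Without replicate 4 Clec4f was called lower in CCl4 livers (log2 -0.95, adjusted p = 0.00423), while with it the value was -0.42 ± 0.30.

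Markers of other myeloid cells moved with CCl4 as well. In wild-type PBS livers 15 of 16 monocyte-derived macrophage markers were called higher with CCl4, where 24.6% of all tested genes were. Their summed level was 335 to 1121 CPM, against 87.2 to 207 CPM on oil. In knockout PBS livers 12 of 16 were called higher, where 17.8% of all tested genes were, and the sum was 387 to 589 CPM against 115 to 164. Gpnmb rose by log2 5.29 ± 0.61 in wild type and 5.36 ± 0.61 in the knockout, and Lgals3 by 5.15 ± 0.51 and 4.65 ± 0.50. These markers were picked for display after their values were seen. Whether entering cells carry part of the Marco, Hk3 and Cd5l rise was not tested.

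**Figure D3:**
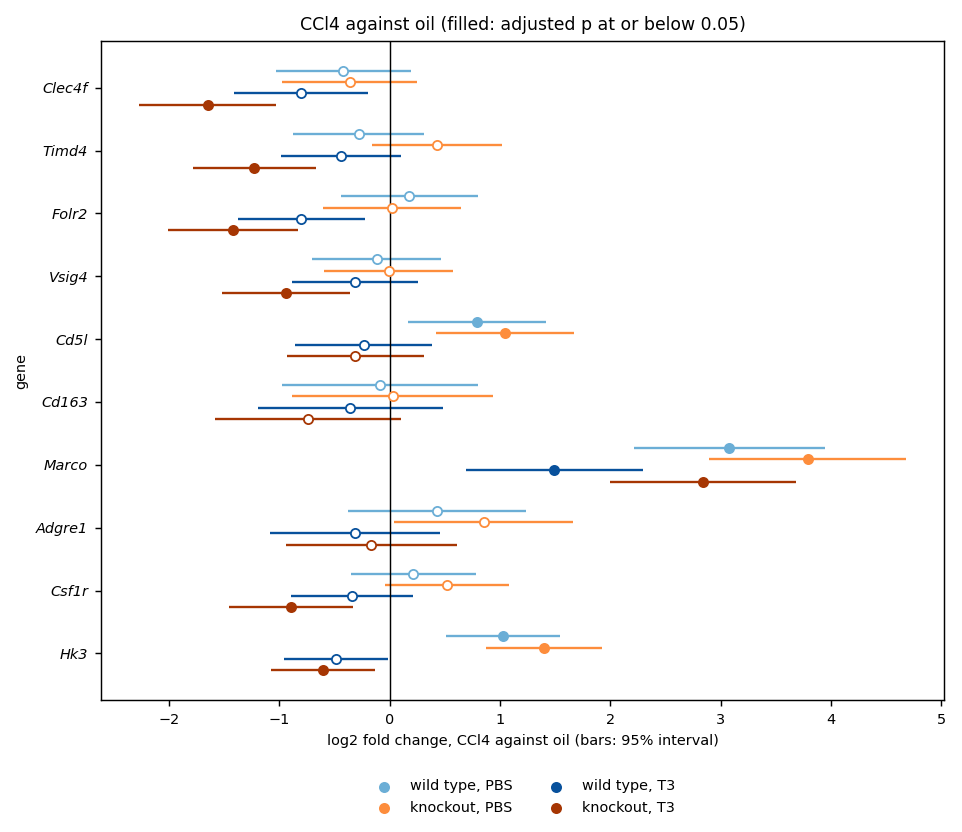
Log2 fold change of each gene for CCl4 against oil in the 4 settings of genotype and hormone, with 95% intervals as bars and filled points at an adjusted p of 0.05 or less. Marco is filled and to the right of 0 in all 4 settings, and in knockout T3 livers 6 genes are filled to the left of 0.

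In CCl4-injected wild-type livers T3 again raised all 10 genes. The count of 10 of 10 stood against 20% of all tested genes called higher, and the median log2 fold change was 1.81 against -0.06 for all tested genes. For 9 of the 10 every T3 liver was above every PBS liver, where 16.6% of all tested genes separated upward. Adgre1 overlapped, as wild-type PBS CCl4 replicate 4 held 20.2 CPM and the lowest T3 liver 19.7 CPM. Timd4 went from 2.40, 2.27, 2.43 and 3.68 CPM on PBS to 11.8, 19.5, 17.9 and 11.1 CPM on T3, 5.59-fold (adjusted p = 1.24e-07), which was the highest fold of the 10 there. Clec4f followed at 5.05-fold, with 120.4, 171, 221 and 150.3 CPM on T3. The lowest folds were those of Hk3 (2.47), Csf1r (2.48) and Marco (2.63). All 10 calls remained when any 1 library was left out.

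In CCl4-injected knockout livers the T3 rise passed the test for 5 of the 10 genes: Clec4f, Folr2, Cd5l, Cd163 and Hk3. That count stood against 1.77% of all tested genes called higher, and the median log2 fold change of the 10 was 0.98 against -0.03. Timd4 had 4.58, 4.09, 1.62 and 5.83 CPM on PBS and 7.44, 9.54, 6.14 and 8.28 CPM on T3. The Timd4 groups did not overlap, which held for 6 of the 10 genes and 5.5% of all tested genes, and the value was log2 0.96 ± 0.28 with an adjusted p of 0.0571. Clec4f had 24.8, 48.1, 18.2 and 35.4 CPM on PBS and 80.5, 103, 64.9 and 58.96 CPM on T3, a fold of 2.43 (log2 1.28 ± 0.30, adjusted p = 0.0185). Cd163, at 1.54, 3.76, 5.61 and 5.33 CPM on PBS and 17.6, 15.6, 8.74 and 10.7 CPM on T3, had the highest fold of the 10, 3.24 (adjusted p = 0.0304). Csf1r was at 32.7 ± 9.24 CPM on PBS and 46.1 ± 7.21 CPM on T3 (log2 0.50 ± 0.27, adjusted p = 0.388). Vsig4, Marco and Adgre1, the other genes that missed the threshold, had log2 values of 0.61, 0.99 and 0.92.

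The 5 calls in knockout CCl4 livers changed with the libraries in the fit, and the cause was not tested. With only the 8 libraries of that comparison in the fit 0 of 10 were called, at adjusted p-values of 0.0625 to 0.157 for the 5 genes, while their fold changes hardly moved (Clec4f log2 1.28 in both fits, Folr2 1.37 against 1.38). Without knockout T3 CCl4 replicate 2 the count was 0, without replicate 1 or 4 of that group 2, without knockout PBS CCl4 replicate 1 it was 1, and without knockout PBS CCl4 replicate 3 it was 3. Without knockout PBS CCl4 replicate 4 it was 6, with Timd4 added. Timd4 was also called with DESeq2 (log2 0.96, adjusted p = 0.0234) and with library totals alone (0.91, adjusted p = 0.0470). All 10 log2 fold changes stayed positive in every fit.

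The difference between the genotypes in the T3 rise of injured livers was called for Timd4. T3 raised it 5.59-fold in wild type, and its knockout fold was 1.95, a difference of log2 -1.52 ± 0.39 (95% interval -2.32 to -0.72, adjusted p = 0.00578). That is 1 of 10 called lower, where 12.4% of all tested genes were, a share close to the background. All 10 differences were negative, and the intervals of 4 lay below 0: Timd4, Vsig4 (-1.06 ± 0.40, adjusted p = 0.0559), Clec4f (-1.05 ± 0.42, 0.0703) and Csf1r (-0.81 ± 0.39, 0.13). The Timd4 call remained when any 1 library was left out, at log2 -1.77 to -1.30. The rest of the count moved with wild-type PBS CCl4 replicate 4. Without it 7 of 10 were called lower, with Clec4f at -1.59, Vsig4 at -1.48, Adgre1 at -1.40, Csf1r at -1.25, Cd5l at -1.16 and Folr2 at -1.11 beside Timd4. Without knockout PBS CCl4 replicate 3 there were 4, without knockout T3 CCl4 replicate 2 there were 3, and without wild-type T3 CCl4 replicate 1 there were 2.

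**Figure D4:**
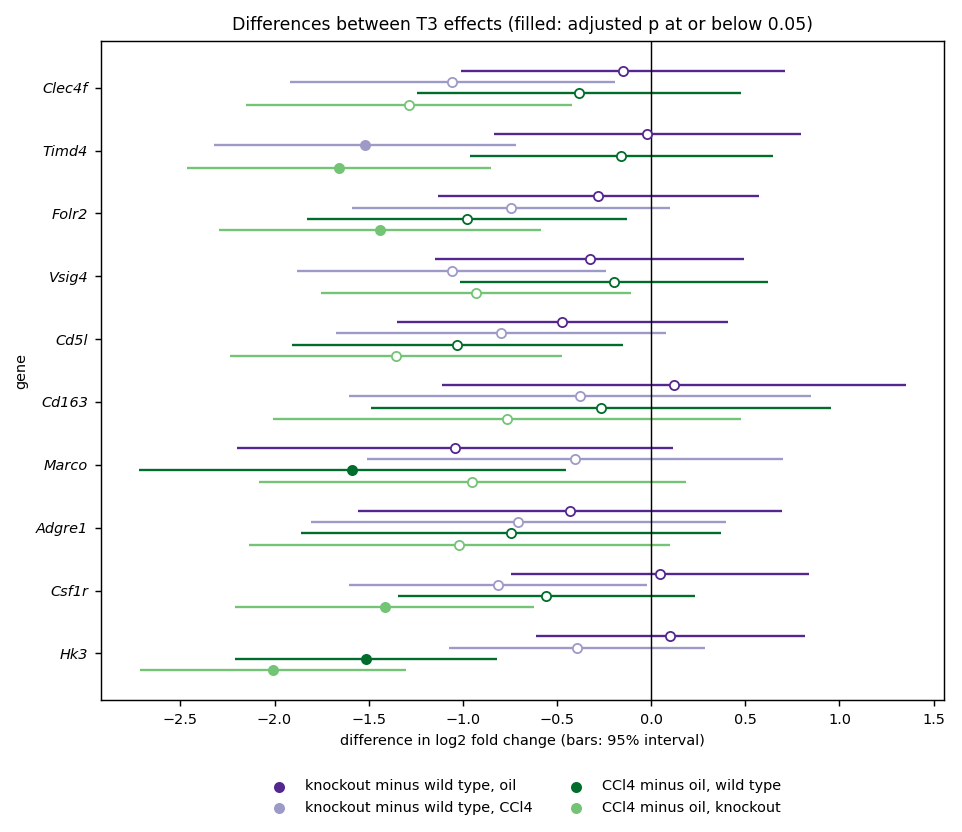
Differences between T3 effects for each gene, as knockout minus wild type on oil or CCl4 and as CCl4 minus oil in wild type or knockout, in log2 units with 95% intervals as bars and filled points at an adjusted p of 0.05 or less. On oil no genotype difference is filled, and on CCl4 only that of Timd4 is. For injury, Marco and Hk3 are filled in wild type and Hk3, Timd4, Folr2 and Csf1r in the knockout.

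The T3 rise of single genes differed between injured and uninjured livers in each genotype. In wild type the T3 effect was smaller on CCl4 than on oil for Hk3 (difference of log2 -1.51 ± 0.34, adjusted p = 0.00271) and Marco (-1.59 ± 0.55, 0.0373). These 2 of 10 stood against 13.1% of all tested genes called lower. Both are genes that CCl4 raised without T3, and the comparisons share the PBS groups. In wild-type T3 livers Hk3 was at 15.8 ± 3.49 CPM on oil and 11.3 ± 2.19 CPM on CCl4 (log2 -0.48 ± 0.23, adjusted p = 0.322). In PBS livers it was at 2.26 ± 0.711 CPM on oil and 4.59 ± 1.19 CPM on CCl4. The Hk3 call remained without any 1 library (log2 -1.72 to -1.36). The Marco call was kept without replicate 2 of T3 CCl4, 1 or 2 of T3 oil, 1 or 4 of PBS CCl4 or 1 of PBS oil and lost in the other 10 of the 16 fits that left 1 library out, at log2 values of -2.04 to -1.24 over all 16, and with only the wild-type libraries in the fit (-1.58, adjusted p = 0.0695). Without PBS oil replicate 1 the count was 4. For Timd4 the wild-type difference was -0.16 ± 0.39 (95% interval -0.96 to 0.65). The direct test of the knockout value against this one, the 3-way interaction given below, did not call Timd4 (adjusted p = 0.0828).

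In the knockout the T3 effect was smaller on CCl4 than on oil for Hk3 (log2 -2.01 ± 0.35, adjusted p = 8.95e-04), Timd4 (-1.66 ± 0.39, 0.0152), Folr2 (-1.44 ± 0.42, 0.0481) and Csf1r (-1.42 ± 0.39, 0.0374). These 4 of 10 stood against 2.56% of all tested genes called lower, and the intervals of 7 lay below 0. Hk3 is a gene that CCl4 raised without T3 in the knockout too (log2 1.40 ± 0.26), and the comparisons share the PBS groups. With T3 its CCl4 value in the knockout was log2 -0.60 ± 0.23. Over the 16 fits that left 1 library out, Hk3 was called in 16, Timd4 in 15 (lost without knockout PBS CCl4 replicate 4, adjusted p = 0.0561), Csf1r in 6 and Folr2 in 3. Csf1r was kept without replicate 2 of T3 CCl4, 1 or 2 of T3 oil, 1 or 3 of PBS CCl4 or 2 of PBS oil, and Folr2 without replicate 2 of T3 CCl4, 1 of T3 oil or 3 of PBS CCl4. Without the filter on low counts the Folr2 call was lost (adjusted p = 0.0632), and with DESeq2 Cd5l was called too (log2 -1.35, adjusted p = 0.0443). With library totals alone Clec4f (-1.38, 0.0405) and Cd5l (-1.43, 0.0335) were added. The count was 6 when knockout PBS CCl4 replicate 3 was left out and 1 when replicate 4 of that group was. The 3-way interaction, which asks whether injury changed the T3 effect differently in the knockout, was called for 0 of 10 genes, against 7.88% of all tested genes, and for 0 with DESeq2. Its only unadjusted p under 0.05 was that of Timd4, at log2 -1.50 ± 0.56 (95% interval -2.64 to -0.36, adjusted p = 0.0828). Without knockout PBS CCl4 replicate 3 the Timd4 value was called (-1.76, adjusted p = 0.0118), and without wild-type PBS CCl4 replicate 4 both Timd4 (-1.68, 0.0354) and Clec4f (-1.44, 0.0404) were.

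Set side by side on T3 and CCl4, knockout livers had less of 4 genes than wild-type livers. Clec4f was lower by log2 -1.11 ± 0.30 (adjusted p = 0.0078), Vsig4 by -1.04 ± 0.28 (0.00837), Timd4 by -0.94 ± 0.27 (0.0115) and Folr2 by -0.78 ± 0.29 (0.0482). The 4 of 10 stood against 12.5% of all tested genes called lower. Knockout livers held 33.8, 38.98, 25.7 and 24.2 CPM of Vsig4 and wild-type livers 42.9, 62.8, 84.9 and 61.6 CPM, with no overlap. Separation downward was seen for 4 of the 10 genes (Csf1r the fourth) and 16.1% of all tested genes. Clec4f and Timd4 were at up to 103 and 9.54 CPM in the knockout against at least 120.4 and 11.1 CPM in wild type. Folr2 overlapped, with 10.9, 17.4, 9.48 and 10.4 CPM in the knockout and 15.3, 24.8, 28.6 and 13.7 CPM in wild type, and its call was kept without knockout replicate 2 or wild-type replicate 1 or 4 and lost in the other 5 of the 8 fits without 1 library, without the filter (adjusted p = 0.0697) and with library totals alone (0.0845). Csf1r was called lower as well with DESeq2 (log2 -0.73, adjusted p = 0.0413) and with only the 2 groups in the fit (-0.72, 0.00505). The Timd4 call was lost without knockout replicate 3 or wild-type replicate 2 (adjusted p of up to 0.0510). Marco was at 210.2 ± 34.8 CPM in the knockout and 177 ± 46.5 CPM in wild type (adjusted p = 0.682). On PBS and CCl4, 0 of 10 genes differed between the genotypes, against 2.25% of all tested genes, and on T3 and oil 0 of 10, against 16.3%. Timd4 was called higher in the knockout on PBS and CCl4 when knockout replicate 3 was left out (log2 0.84, adjusted p = 0.0459).

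With T3 present, CCl4 lowered 6 of the 10 genes in the knockout and 0 in wild type. In knockout T3 livers, where 19.8% of all tested genes were called lower, Clec4f fell to 0.319 of its oil level (log2 -1.65 ± 0.30, adjusted p = 1.54e-04). Folr2 fell to 0.375, Timd4 to 0.428, Vsig4 to 0.522, Csf1r to 0.538 and Hk3 to 0.658. All 6 had every CCl4 liver below every oil liver, as did Cd163, which was called only with the 2 groups alone in the fit (log2 -0.73, adjusted p = 0.0177), and as did 18.6% of all tested genes. The Hk3 call was kept without replicate 2 of the CCl4 group or 1 or 2 of the oil group and lost in the other 5 of the 8 fits without 1 library (adjusted p of up to 0.149), without the filter (0.0820) and with library totals alone (0.102). In wild-type T3 livers, where 1.74% of all tested genes were called lower, Clec4f was at log2 -0.80 ± 0.30 and Folr2 at -0.80 ± 0.28 (adjusted p = 0.166 and 0.133). Clec4f was called there with only the 2 groups in the fit (-0.80, adjusted p = 0.0405). The difference between the genotypes in the CCl4 effect on T3 was not tested. Marco rose with CCl4 on T3 in both genotypes, where 1.67% and 19.7% of all tested genes were called higher, 2.81-fold in wild type (adjusted p = 0.0268) and 7.16-fold in the knockout (1.14e-05). The wild-type Marco call was kept without replicate 4 of either group and lost in the other 6 of the 8 fits without 1 library (adjusted p of up to 0.0951).

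Ordered by group means, 9 of the 10 genes had the 4 PBS groups below the 4 T3 groups, and Marco did not. For 5 genes (Timd4, Folr2, Cd5l, Cd163 and Hk3) each of the 16 T3 livers was above each of the 16 PBS livers. The highest mean of those 9 was in wild-type T3 oil livers, and neighbouring groups in the order overlapped for most pairs. Timd4 ran from 2.69 CPM in wild-type PBS CCl4 livers, through 2.98, 3.29 and 4.03 in the other PBS groups and 7.85 in knockout T3 CCl4 livers, to 15.1, 18.3 and 20.5. In that order, knockout T3 CCl4 livers overlapped neither neighbour. Marco ran from 7.67 and 7.99 CPM in the PBS oil groups, through 29.4 and 62.7 in the T3 oil groups and 67.05 and 106 in the PBS CCl4 groups, to 177 and 210.2 in the T3 CCl4 groups. As a description over the 32 libraries, which share groups, the correlation with the mean standardised log2 profile of the 10 genes was 0.540 for Marco and 0.918 to 0.986 for the other 9. Each gene is itself part of that mean, which raises its correlation.

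The tested genes outside the list whose log2 levels followed that mean profile most closely over the 32 libraries were C1qc (Pearson r = 0.987), C1qa (0.984), C1qb (0.982), Sdc3 (0.982) and Cfp (0.981). The C1q genes encode the chains of the first complement component, Cfp encodes properdin and Sdc3 a syndecan. They were ranked by the likeness itself, so the values are a description.

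Other Kupffer cell genes, on a list of 20, moved with the 10. On oil T3 raised 18 of 20 in wild type (median log2 1.90) and 16 in the knockout (1.64), with 0 lower in either. Of all tested genes 19% and 10.6% were called higher. Siglec1, a sialic acid receptor, rose by log2 3.56 ± 0.31, Sdc3 by 2.51 ± 0.22 and Il18bp, an inhibitor of interleukin 18, by 2.45 ± 0.20 in wild type. On CCl4, T3 raised 16 and lowered 1 in wild type, the transcription regulator Id1 (-1.27 ± 0.42), against 20% and 21.7% of all tested genes. In the knockout it raised 6, against 1.77%. The genotype difference on CCl4 was called lower for 2 of 20, a smaller share than the 12.4% of all tested genes: Sdc3 (-0.82 ± 0.30) and Nr1h3 (-0.73 ± 0.24), the gene of a sterol-sensing nuclear receptor. Without wild-type PBS CCl4 replicate 4 it was 9 of 20, against 15.7% of all tested genes, and without knockout PBS CCl4 replicate 3 it was 4, against 14.5%.

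In the CSF1 receptor pathway and the macrophage transcription factors, 6 of 12 genes rose with T3 in wild-type oil livers, where 19% of all tested genes did. The 3 with the smallest adjusted p were Stat5a (log2 2.90 ± 0.15), a signal transducer that cytokine receptors activate, Cebpb (3.13 ± 0.35) and Spi1 (2.21 ± 0.29), the gene of the macrophage factor PU.1. The growth factor Csf1 had 0.95 ± 0.22 and the second ligand Il34 -0.29 ± 0.29 (adjusted p = 0.473). In knockout oil livers 5 rose and 1 fell, against 10.6% and 8.11% of all tested genes. On CCl4 0 changed in the knockout, against 2.54%. In wild type on CCl4 2 rose and 2 fell, shares below the 20% and 21.7% of all tested genes. Of other hexokinase genes, T3 raised Hk2 in both genotypes on oil (log2 2.09 ± 0.33 and 1.73 ± 0.33) and Hk1 in the knockout (0.85 ± 0.22).

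Pan-macrophage and leukocyte markers rose with T3 on oil, 11 of 12 in each genotype, against 19% and 10.6% of all tested genes in wild type and knockout. Their summed level was 167 to 257 CPM on PBS and 355 to 619 CPM on T3 in wild-type oil livers. Laptm5, a lysosomal protein gene of leukocytes, rose by log2 1.81 ± 0.22, Fcer1g, an Fc receptor chain gene, by 1.67 ± 0.22 and Aif1, a macrophage marker gene, by 2.16 ± 0.29 in wild-type oil livers. On CCl4 3 of 12 rose with T3 in wild type (7 without PBS CCl4 replicate 4) and 0 in the knockout, where 20% and 1.77% of all tested genes did. Of the 16 monocyte-derived macrophage markers, T3 raised 10 in wild-type and 8 in knockout oil livers, against 19% and 10.6% of all tested genes. In wild-type oil livers Plac8 rose by log2 1.52 ± 0.22, the fatty acid binding protein gene Fabp5 by 3.32 ± 0.57 and Chil3 by 3.97 ± 0.69. On CCl4 in wild type it raised 1 (Fabp5) and lowered 7, where 21.7% of all tested genes fell, the reverse of the 10 Kupffer cell genes, with Cd14 at log2 -3.72 ± 0.51, F13a1 at -2.02 ± 0.51 and Lgals3 at -1.69 ± 0.43. Without PBS CCl4 replicate 2 or replicate 4 the count lowered in wild type was 6. In knockout CCl4 livers 1 rose and 0 fell, against 1.77% and 0.769% of all tested genes.

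Neutrophil markers were at low levels on oil and 7 of the 8 tested were called lower with T3 in wild-type CCl4 livers, where 21.7% of all tested genes were. Their summed level was 39.1, 345, 60.9 and 28.7 CPM in the 4 PBS CCl4 replicates and 19.6 to 25.8 CPM on T3, so replicate 2 alone stood far above the others. Of the 8 genes 3 had every T3 liver below every PBS liver, where 14.8% of all tested genes did. Without replicate 2 the count was 3 (Retnlg, S100a8 and S100a9), against 16.8% of all tested genes. In knockout CCl4 livers T3 raised 1 of the 8 and lowered 0, against 1.77% and 0.769%. Without knockout PBS CCl4 replicate 3 it raised 0, against 1.91%. The genotype difference on CCl4 was called higher for 5 of the 8, against 10.3%. Without wild-type PBS CCl4 replicate 2 it was also 5, against 8.26%. Ly6g and Camp, the other 2 of the 10 listed, did not pass the filter, and Ly6g had 0 reads in every PBS oil liver. For sinusoidal endothelial markers, another lining cell, T3 gave 0 of 12 higher and 2 lower in wild-type oil livers. Of all tested genes 19% and 16.2% were, so the share lower was close to the background. The 2 lower were Oit3 (-0.62 ± 0.21) and the growth factor receptor gene Kdr (-0.49 ± 0.19). In knockout oil livers 0 were called, against 18.7% of all tested genes. In wild-type CCl4 livers 1 was called higher and 1 lower (Lyve1), against 20% and 21.7%. Without PBS CCl4 replicate 4 the count was 3 higher and 1 lower, against 21.9% and 23.7%. In knockout CCl4 livers 0 were called, against 2.54%. Of the 9 hepatocyte markers matched, T3 raised 1 in wild-type oil livers, Serpina1a (log2 1.17 ± 0.22). T3 lowered 3 there, among them the cytochrome gene Cyp2e1 (-2.83 ± 0.45) and Alb (-0.70 ± 0.23). Among all tested genes 19% were called higher there and 16.2% lower. In wild-type CCl4 livers T3 raised 6, against 20% of all tested genes. The cell cycle list rose with T3 on oil, 11 of 12 genes in each genotype, against 19% and 10.6% of all tested genes. On CCl4 6 rose in wild type and 0 in the knockout, against 20% and 1.77%. Which cells carry these transcripts, and their part in the rise of the 10 genes, was not tested.

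**Figure D5:**
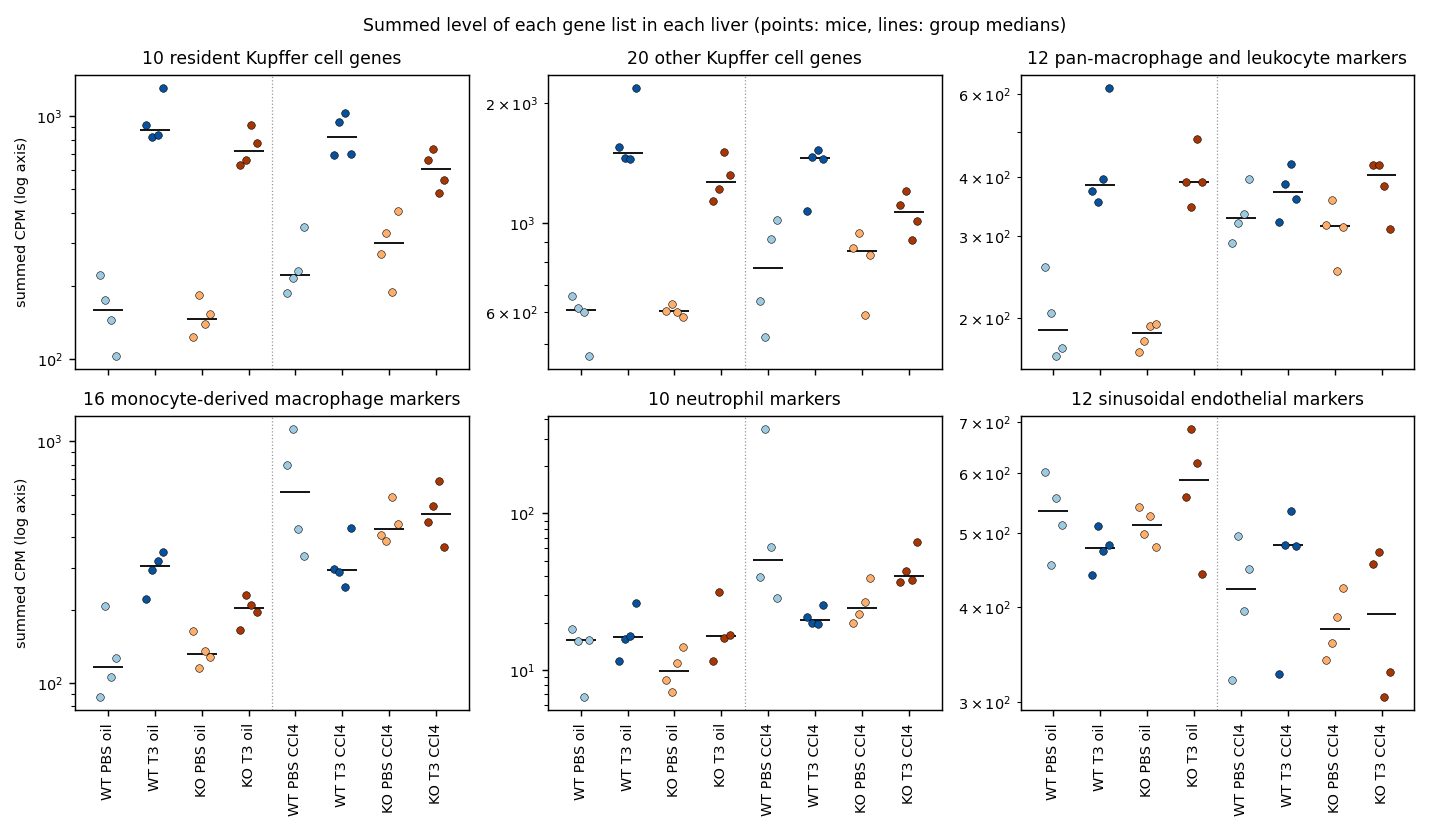
Summed CPM of 6 gene lists in each liver on a log axis, with 1 point per mouse, a line at each group median and a dotted line between oil and CCl4 groups. The 10 Kupffer cell genes and the 20 others are higher on T3 in each pair of medians, while the monocyte-derived and neutrophil lists are lower on T3 than on PBS in wild-type CCl4 livers.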

How the data were processed

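The authors deposited raw counts of reads per gene, with no normalization, for 32 mouse liver libraries of polyadenylated RNA. The submitters' processing notes list STAR 2.7.9a, FastQC 0.11.5, cutadapt and Trim Galore, and the build GRCm38; no source used here gives the counting tool, its strand setting or its annotation. Per the labels' protocols, 2 TruSeq kits were used, 1 of them stranded, and which library had which is not given there, so kit and group cannot be told apart. Symbols, positions and exon lengths came from GENCODE vM21. The 147 Ensembl identifiers with no match in that annotation (at most 0.00558% of the counts of a library) were kept.

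Genes were filtered with filterByExpr (minimum count 10), scaled by TMM and fitted with edgeR 4.0.16 (R 4.3.3) in 1 quasi-likelihood model over all 8 groups, without covariates. P-values were adjusted by Benjamini-Hochberg over 15599 genes in each of 17 comparisons, and a gene was called at 0.05 or less. CPM values use the TMM scaling, and log2 fold changes carry the standard error and 95% interval of the fit. The fit was tested on simulated data. For T3 in wild-type oil livers it called 61 of 100 genes changed 2-fold and 91 of 100 changed 4-fold. For the genotype difference on oil it called 28 of 100 and 70 of 100, so most 2-fold differences of that kind were missed. Differences between T3 effects are interaction terms. Alternatives were library totals, no filter, a replicate block, only the groups compared, DESeq2 1.42.0 and leaving out each library. Leaving out both libraries farthest from their group means, and recounting the gene lists without each of the 3 farthest, were added after the data were seen. The members, gene lists and tests were chosen with earlier results of these data known. Named list genes were mostly taken from the 3 of a list with the smallest adjusted p for T3 in wild-type oil livers. Some of those 3 are not named, and others named in the text were chosen after their values were seen. No 2 libraries of a group agreed within counting noise. Same-numbered replicates are different animals and were not paired.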

Additional observations from a re-analysis of the deposited data

Results flagged for a closer look

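Within groups of 4, a sample was picked out where its gap to the nearest other, divided by the range of the group, passed Dixon's 95% critical value. Of the 80 combinations of gene and group 8 did so, where chance gives about 1 in 20. Wild-type PBS CCl4 replicate 4 accounts for 5, all on the high side: Clec4f at 63.1 CPM (others 20.04 to 24.4), Timd4 at 3.68 (2.27 to 2.43), Cd5l at 113 (49.7 to 59.1), Adgre1 at 20.2 (5.24 to 6.33) and Csf1r at 54.8 (21.6 to 24.05). Marco was low in knockout T3 CCl4 replicate 3, at 158.5 CPM (others 221 to 233), and high in knockout PBS CCl4 replicate 4, at 158.8 CPM (83.7 to 93.6). Cd163 was high in knockout PBS oil replicate 2, at 6.91 CPM (2.76 to 3.43).

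Tested differences between T3 effects passed the threshold for 7 pairs of gene and comparison. The genotype difference on CCl4 was log2 -1.52 for Timd4. The difference between CCl4 and oil in wild type was -1.59 for Marco and -1.51 for Hk3. In the knockout it was -2.01 for Hk3, -1.66 for Timd4, -1.44 for Folr2 and -1.42 for Csf1r.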

How the results depend on the processing

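Of 170 values over the 10 genes, 60 were called, and 0 of the 60 changed sign in any alternative; 864 alternatives of called values gave 773 on the same side of the threshold and 91 below it, and the cause was not tested. With library totals alone, which moved the median of all tested genes by up to 0.395 (CCl4 in wild-type PBS livers) and -0.482 (injury difference in wild type), 5 genes were called for the injury difference in wild type, 6 for CCl4 in knockout PBS livers and 1 for genotype on T3 and oil. With only the groups compared, 0 were called for T3 in knockout CCl4 livers, 1 for the injury difference in wild type, 2 for CCl4 in wild-type T3 livers and 1 for genotype on T3 and oil; the 3-way term uses all groups, so no such fit exists. DESeq2 called 2 for the genotype difference of T3 on CCl4 and 1 for genotype on T3 and oil. Without both farthest libraries (added after the data were seen) the counts were 3 for T3 in knockout CCl4 livers, 3 for the genotype difference on CCl4, 1 for the 3-way term and 5 for CCl4 in knockout PBS livers. The replicate block called 3 for the injury difference in the knockout (Folr2 at -1.45, adjusted p = 0.0561, lost). It called 2 for CCl4 in wild-type PBS livers (Cd5l at 0.76, adjusted p = 0.0527, lost) and changed no other count. Correlations of same-numbered deviations from the group means ran from -0.414 to 0.569, a range that does not decide whether the numbers pair mice. Counts without 1 library ran from 0 to 6 for T3 in knockout CCl4 livers, 1 to 7 for the genotype difference on CCl4, 1 to 4 and 1 to 6 for the injury difference in wild type and knockout, 0 to 2 for the 3-way term, 2 to 5 for genotype on T3 and CCl4, and 0 to 1 for CCl4 in wild-type T3 livers and for genotype on T3 and oil or on PBS and CCl4.

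Uncalled values that turned with library totals were Csf1r -0.080 (genotype difference on oil), Cd5l 0.10 and Adgre1 0.14 (3-way), Timd4 0.13, Vsig4 0.27 and Cd163 0.29 (CCl4, wild-type PBS), Vsig4 0.25 (CCl4, knockout PBS), Adgre1 0.013 (CCl4, knockout T3), and Vsig4 -0.12, Csf1r -0.047 and Hk3 -0.053 (genotype, PBS and CCl4). Without the filter they were Cd5l 0.00080 (genotype, PBS and oil) and Vsig4 -0.00043 (genotype, PBS and CCl4). Without both farthest libraries they were Vsig4 0.19 and Cd163 -0.18 (CCl4, knockout PBS) and Clec4f 0.024 and Folr2 0.035 (genotype, PBS and CCl4). Leaving out 1 library at a time turned 34 uncalled values, with these ranges of log2 values for the 3-way interaction, Adgre1 -0.97 to 0.10, for CCl4 in knockout T3 livers, Adgre1 -0.37 to 0.048, for the injury difference in wild type, Clec4f -0.55 to 0.15, Timd4 -0.46 to 0.027, Vsig4 -0.37 to 0.22 and Cd163 -0.58 to 0.14, for the genotype difference of T3 on oil, Clec4f -0.31 to 0.0032, Timd4 -0.35 to 0.12, Cd163 -0.20 to 0.49, Csf1r -0.12 to 0.28 and Hk3 -0.13 to 0.25. For the other comparisons the ranges were, for genotype on T3 and oil, Csf1r -0.30 to 0.057, for CCl4 in knockout PBS livers, Folr2 -0.12 to 0.18, Vsig4 -0.18 to 0.19 and Cd163 -0.18 to 0.40, for genotype on PBS and CCl4, Clec4f -0.32 to 0.48, Folr2 -0.20 to 0.34, Vsig4 -0.16 to 0.44, Cd163 -0.57 to 0.15, Csf1r -0.052 to 0.52 and Hk3 -0.069 to 0.24, for CCl4 in wild-type PBS livers, Timd4 -0.47 to 0.026, Folr2 -0.19 to 0.49, Vsig4 -0.53 to 0.051, Cd163 -0.49 to 0.23, Adgre1 -0.26 to 0.79 and Csf1r -0.22 to 0.35, for genotype on PBS and oil, Clec4f -0.25 to 0.042, Timd4 -0.28 to 0.19, Folr2 -0.078 to 0.45, Vsig4 -0.26 to 0.095, Cd5l -0.19 to 0.24, Marco -0.56 to 0.42 and Adgre1 -0.35 to 0.23.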

Other observations

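Cell cycle genes, a list of 12, had the largest T3 response of the lists on oil. In wild type 11 of 12 were called higher with a median log2 fold change of 4.38, and in the knockout 11 of 12 with a median of 3.57. Of all tested genes 19% and 10.6% were called higher. The cyclin gene Ccna2 rose by log2 4.85 ± 0.46 in wild type, the mitotic kinase gene Cdk1 by 4.78 ± 0.45 and Rrm2, a subunit of ribonucleotide reductase, by 4.05 ± 0.37. The T3 effect on this list was smaller on CCl4 than on oil, called for 10 of 12 genes in wild type and 11 in the knockout. Of all tested genes 13.1% and 2.56% were called lower. CCl4 without T3 raised 5 of the 12 in wild type and 10 in the knockout, against 24.6% and 17.8% of all tested genes. Which cells carry these transcripts was not tested.

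Of 16 lymphocyte markers, T3 raised 4 in wild-type oil livers, where 19% of all tested genes were called higher, and 10 in knockout oil livers, where 10.6% were. On CCl4 it raised 7 in wild type, against 20% of all tested genes, and 1 in the knockout, against 1.77%. Without wild-type PBS CCl4 replicate 2 the 7 became 4, and without replicate 4 it became 10. The granzyme genes Gzma and Gzmb, of cytotoxic lymphocytes, rose by log2 2.03 ± 0.46 and 2.60 ± 0.45 in wild-type oil livers. Of 8 dendritic cell markers, 5 rose with T3 on oil in each genotype, against 19% of all tested genes in wild type and 10.6% in the knockout. On CCl4 1 rose in each, against 20% and 1.77%, so the wild-type share was below that of all tested genes. Itgax, an integrin gene, was at log2 1.56 ± 0.30 in wild-type oil livers. Among 8 genes of red cell uptake and haem iron, T3 raised 4 in wild-type oil livers, including the haem oxygenase gene Hmox1 (1.85 ± 0.22) and the iron transporter gene Slc11a1 (1.59 ± 0.23), and lowered the ferritin gene Fth1 (-0.63 ± 0.23). Of all tested genes 19% were called higher there and 16.2% lower.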
